A study of Mus musculus with 2 samples.

Results

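The genes described here are those that encode the histone variant H2A.Z and one of its chaperones in mouse embryonic stem cells (mESCs). H2afz (ENSMUSG00000037894.13, named H2az1 in RefSeq) encodes H2A.Z.1, H2afv (ENSMUSG00000041126.16, named H2az2 in RefSeq) encodes H2A.Z.2, and Anp32e (ENSMUSG00000015749.12) encodes ANP32E, a chaperone that takes H2A.Z off nucleosomes. They were chosen by name, as 3 of the 21951 protein-coding genes (55450 genes of all types) of the GENCODE vM21 annotation on the mouse genome build GRCm38. Their loci, taken as the gene body and 50 kb on each side, held 19 of the 28718 peaks listed for an antibody against GFP and 15 of the 28167 peaks listed for an antibody against SRCAP.

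H2A.Z replaces canonical H2A in a minority of nucleosomes, mostly those next to transcription start sites (TSSs) and enhancers. SRCAP is the ATPase of a remodelling complex that exchanges H2A-H2B dimers for H2A.Z-H2B dimers, the p400-TIP60 complex carries a related ATPase, and ANP32E binds the C-terminal region of H2A.Z and acts in the opposite direction. H2A.Z is essential for early mouse development, and in mESCs it is known for its place at active and bivalent promoters.

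CUT&RUN, the assay used, brings a nuclease to an antibody on chromatin and recovers the DNA cut loose around the bound protein. The cells were the SYAT line, derived from CGR8 mESCs, in which the fluorescent protein YPet and the auxin-inducible degron AID were joined to SRCAP on both alleles and the receptor OsTir1 was stably expressed. Each antibody gave 1 library from 100000 cells fixed in 0.1% formaldehyde for 5 min: the GFP antibody, which binds YPet, reads the tagged SRCAP, and the SRCAP antibody reads the protein itself. All cells thus carried the tag and the receptor, and per the labels SYAT cells were routinely kept with 200 nM auxinole, an inhibitor of the receptor, while the treatment of each library was not given. The methods of the study give the auxinole dose in µM and not in nM. With 1 library per antibody there is no replicate error and no test between antibodies. The depth is unknown, because the files hold peaks and no reads, and the files hold no expression values with which the cell type could be checked. Each peak carries a score given by the authors, a whole number of at least 13 in both lists. Its meaning was not stated, so it was ranked only within a list. A gene with no listed peak is one where no region passed the authors' threshold, which does not show that SRCAP was absent.

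SRCAP was listed at the promoters of H2afv and Anp32e with both antibodies and at the promoter of H2afz with neither. A promoter was the region from 1000 bp upstream to 500 bp downstream of any annotated TSS, and peaks were placed by their midpoints. A GFP peak was listed at the promoters of 2 of the 3 genes, and at those of 35.0% of all protein-coding genes. For SRCAP peaks it was also 2 of 3, against 35.6%. Peaks with both antibodies were present at 27.0% of protein-coding promoters and absent with both at 56.4%. A promoter state like that of H2afz was therefore the more common one among all protein-coding genes. It was the less common one, at 35.6%, among those with an observed over expected CpG ratio of at least 0.6, which include H2afz. Among the 1285 genes with a ratio above 1.0, where H2afz (1.02) lies, 43.6% had a GFP and 43.5% a SRCAP promoter peak. The share of these with neither was not counted.

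The promoter sequences of the 3 genes, from RefSeq on GRCm38.p6, are shown because they carry this contrast. Each runs 5′ to 3′ from 250 bases before to 50 bases after the RefSeq start, and capitals mark matches on either strand to 4 motifs. CCAAT, the box read by NFY, appears as ATTGG when it lies on the other strand. GGGCGG, the GC box read by SP and KLF factors, appears there as CCGCCC. The cell cycle element known as CHR, TTTGAA, appears there as TTCAAA, and the E-box read by MYC and USF is CACGTG on both strands.
H2afz promoter, chr3:137864237-137864536, plus strand: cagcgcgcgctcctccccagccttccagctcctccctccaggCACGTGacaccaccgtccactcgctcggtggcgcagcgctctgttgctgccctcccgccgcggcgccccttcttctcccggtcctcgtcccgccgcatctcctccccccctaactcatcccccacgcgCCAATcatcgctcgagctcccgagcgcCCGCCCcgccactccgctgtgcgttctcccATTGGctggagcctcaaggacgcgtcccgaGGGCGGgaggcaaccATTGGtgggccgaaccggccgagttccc
H2afv promoter, chr11:6444394-6444693, minus strand: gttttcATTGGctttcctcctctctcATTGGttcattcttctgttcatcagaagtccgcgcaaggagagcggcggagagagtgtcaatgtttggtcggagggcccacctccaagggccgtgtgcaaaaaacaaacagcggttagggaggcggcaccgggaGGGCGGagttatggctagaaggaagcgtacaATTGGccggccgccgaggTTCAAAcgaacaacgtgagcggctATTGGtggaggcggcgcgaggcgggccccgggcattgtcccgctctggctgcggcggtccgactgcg
Anp32e promoter, chr3:95929007-95929306, plus strand: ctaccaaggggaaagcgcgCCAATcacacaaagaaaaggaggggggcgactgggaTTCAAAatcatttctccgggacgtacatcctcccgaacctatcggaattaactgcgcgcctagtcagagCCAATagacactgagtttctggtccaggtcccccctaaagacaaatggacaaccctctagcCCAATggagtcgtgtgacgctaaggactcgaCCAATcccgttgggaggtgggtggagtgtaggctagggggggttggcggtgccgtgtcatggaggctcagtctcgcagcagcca

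None of the 300 bases of the H2afz promoter lay in a peak of either list. Of the H2afv promoter, bases 1 to 213 lay in the GFP peak and bases 1 to 233 in the SRCAP peak, so that the last bases before the TSS and those after it were outside both. In the Anp32e promoter the GFP peak covered bases 1 to 206 and the SRCAP peak bases 1 to 245.

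CCAAT was the motif with the most matches in each of these promoters, 3 in H2afz, 4 in H2afv and 4 in Anp32e. At least 1 copy was present in 37.4% of the 32851 RefSeq promoters of the same length, at least 3 copies in 3.37% and at least 4 in 1.06%. The number of copies was looked at only after these matches had been seen. Of the 4 copies in H2afv, 3 lay within both peaks. In Anp32e 3 of 4 lay within the GFP peak and 4 of 4 within the SRCAP peak, and the copies of H2afz lay in no peak. GGGCGG was matched 2 times in H2afz and 1 time in H2afv, against 35.7% of RefSeq promoters with a match. CACGTG was matched 1 time, in H2afz, against 7.15%. TTTGAA was matched 1 time each in H2afv and Anp32e, against 17.9%. The other motifs of the 11 searched had no match in the 3 promoters, and no matches overlapped each other. These are matches of letters and were not measured as bound sites.

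H2afv, on the minus strand of chromosome 11 (6427229 to 6444443, 17215 bp, 2 transcripts), had the highest GFP promoter score of the 3 genes. The GFP peak at 6444481 to 6445000 scored 239. Its midpoint lay 297 bp upstream of the 5′-most TSS. Among the 7682 protein-coding genes with a GFP promoter peak, it ranked 211 by its highest score, with 97.2% of them below it. The SRCAP peak at 6444461 to 6444842 overlapped it by 362 bp and scored 60, with the midpoint 208 bp upstream. It ranked 3758 of 7825 genes, with 48.5% below it, so the same promoter stood near the top of one list and at the middle of the other. The median highest promoter score was 57 over all genes with a GFP promoter peak and 60 over those with a SRCAP promoter peak.

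A second GFP peak with its midpoint in the H2afv promoter window lay in intron 1, at 6443876 to 6444128, and scored 45, below the list median of 47. No SRCAP peak overlapped it. Between both GFP peaks a stretch of 352 bp around the TSS held no GFP peak. The 5′ peak ended 38 bp before the TSS and the intronic peak began 315 bp after it. The SRCAP peak also stopped short of the TSS, by 18 bp.

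Anp32e, on the plus strand of chromosome 3 (95929246 to 95947390, 18145 bp, 10 transcripts), had a promoter peak with each antibody. The GFP peak at 95928765 to 95929212 scored 115 and ranked 1196 of 7682 genes, with 84.1% below it. It lay wholly within the SRCAP peak at 95928748 to 95929251, an overlap of 448 bp. The SRCAP peak scored 61 and ranked 3722 of 7825 genes, with 52.0% below it. The midpoints were 258 and 247 bp upstream of the 5′-most TSS. The GFP peak ended 34 bp before that TSS, while the SRCAP peak ran 5 bp past it. For 7 of the 10 transcripts the midpoints were within the promoter window, and the TSSs of the other 3 lie further downstream in the gene.

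With the SRCAP antibody, H2afv and Anp32e differed by a single unit of score, 60 against 61. With the GFP antibody they stood apart, 239 against 115. Whether this gap exceeds the error between libraries was not tested, since neither antibody was repeated.

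**Figure D1:**
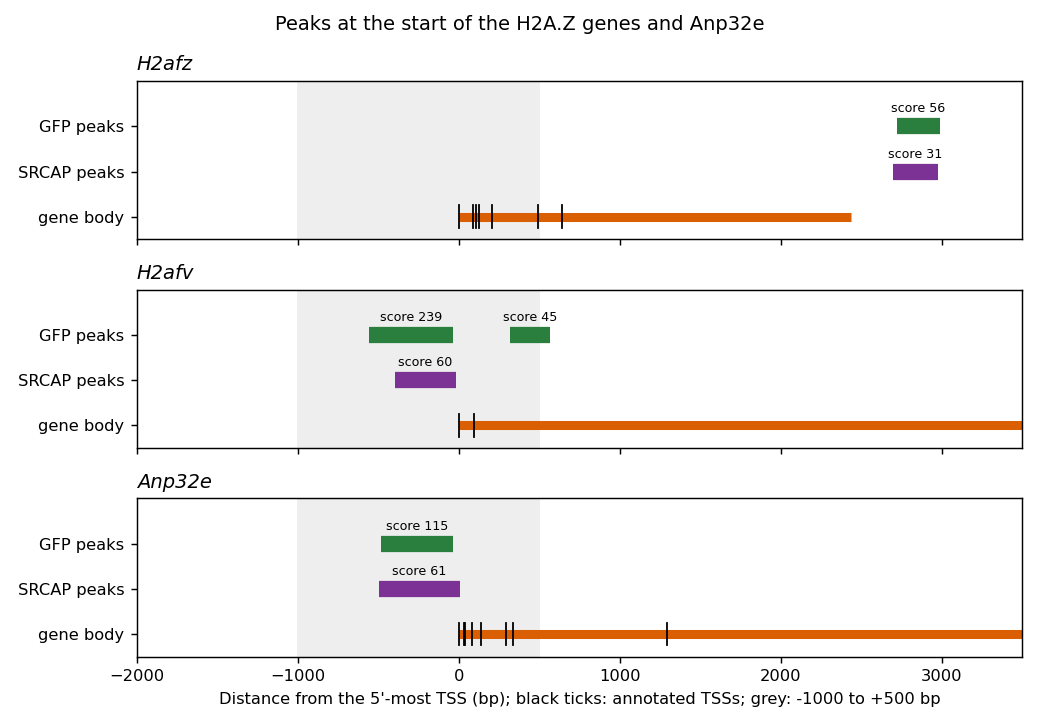
Listed peaks at the start of H2afz, H2afv and Anp32e, plotted by distance from the 5′-most TSS in bp, with GFP peaks in green, SRCAP peaks in purple, the gene body in orange and annotated TSSs as black ticks. The peaks of H2afv (GFP scores 239 and 45, SRCAP score 60) and Anp32e (115 and 61) have their midpoints in the grey window. It runs from 1000 bp upstream to 500 bp downstream of that TSS. The window of H2afz is empty and its nearest peaks (56 and 31) lie past the end of the gene.

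**Figure D2:**
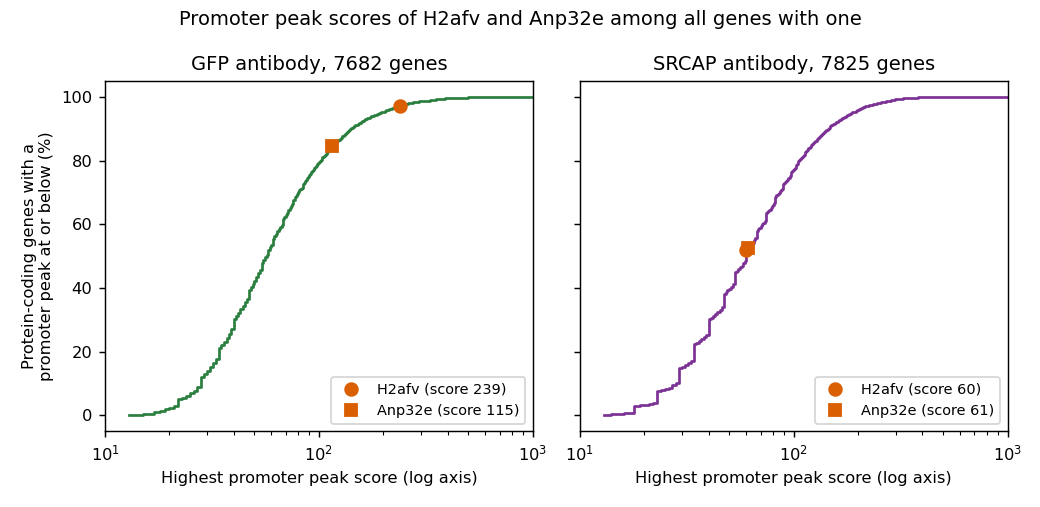
Cumulative percentage of protein-coding genes by their highest promoter peak score, on a log axis, for the 7682 genes with a GFP promoter peak and the 7825 genes with a SRCAP promoter peak. H2afv (circle) and Anp32e (square) are apart in the GFP list, with 97.2% and 84.1% of genes below them, and side by side in the SRCAP list, with 48.5% and 52.0% below.

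Genes with the scores most like these were looked up among the 5932 protein-coding genes with a promoter peak in both lists, by the Euclidean distance between log10 scores over the 2 libraries. Nearest to H2afv were Cep120, a centriole protein gene, with scores of 254 and 59 for the GFP and SRCAP antibodies, and the adjacent pair Btf3l4 and Txndc12, which were both listed with 221 and 65. Nearest to Anp32e were Plrg1, a spliceosome component (115 and 60), Srsf5, a splicing factor (114 and 62), and Nol6, a nucleolar protein gene (116 and 60). Each of the likenesses rests on 2 values.

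H2afz, on the plus strand of chromosome 3 (137864487 to 137866922, 2436 bp, 7 transcripts), had no peak in its promoter or its gene body in either list. Its TSSs span 137864487 to 137865128. The nearest peak began past the 3′ end of the gene, where both lists had 1 at the promoter of Dnajb14, which encodes a J-domain cochaperone of the endoplasmic reticulum and is transcribed in the same direction from 753 bp beyond H2afz. The GFP peak at 137867211 to 137867472 scored 56 and the SRCAP peak at 137867181 to 137867460 scored 31. Their midpoints were 419 and 398 bp past the end of H2afz, 2854 and 2833 bp from its 5′-most TSS, and 334 and 355 bp upstream of the Dnajb14 TSS. Of all protein-coding genes, 37.4% had a nearer GFP peak and 37.1% a nearer SRCAP peak to their TSS. Around the H2afz TSS, 19.1 kb were free of GFP peaks and 33.1 kb free of SRCAP peaks. An antisense gene of unknown function, Gm43403, begins 113 bp upstream of H2afz, so the peak-free promoter region is that of a divergent pair.

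The base composition of the H2afz promoter did not set it apart from H2afv. In the 500 bp centred on the TSS the observed over expected CpG ratio was 1.02 in H2afz, 1.07 in H2afv and 0.796 in Anp32e, and 95.4%, 98.0% and 70.9% of protein-coding genes were below these values. GC content was 69.0%, 67.8% and 57.8%, and the windows held 60, 59 and 33 CpG dinucleotides. The median protein-coding promoter had a ratio of 0.586, a GC content of 57.0% and 23 CpG. Among the 10745 protein-coding genes with a ratio of at least 0.6, 52.3% had a GFP promoter peak, 53.1% had a SRCAP promoter peak and 35.6% had neither. The share with a peak was highest at ratios of 0.7 to 0.8, the bin of Anp32e, at 56.8% with the GFP and 57.0% with the SRCAP antibody. Above a ratio of 1.0, where H2afz and H2afv both lie, it was 43.6% (95% Wilson interval 40.9 to 46.3) and 43.5% (40.8 to 46.2) of 1285 genes. These intervals cover counting error only.

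**Figure D3:**
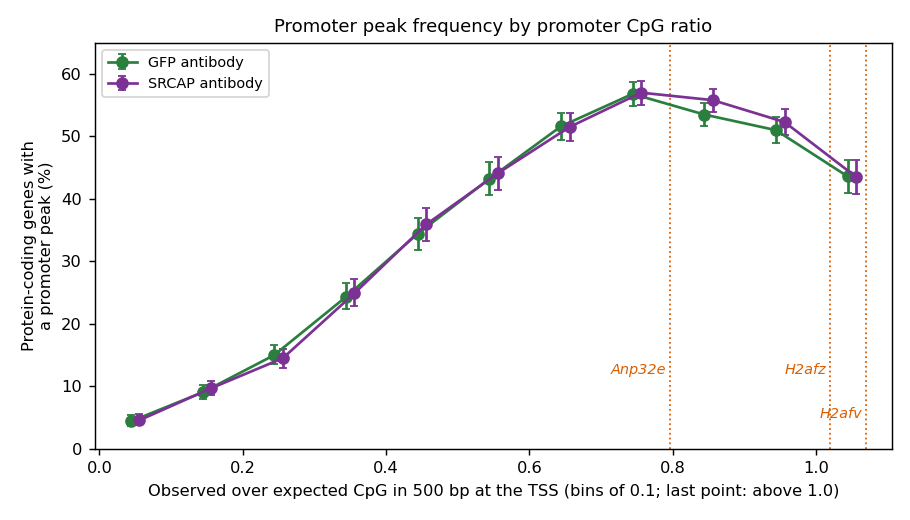
Percentage of protein-coding genes with a promoter peak, with 95% Wilson intervals, by the CpG ratio of the 500 bp at the TSS in bins of 0.1, the last point holding all ratios above 1.0. Dotted lines mark Anp32e (0.796) in the bin with the highest percentages (56.8 and 57.0) and H2afz (1.02) and H2afv (1.07) in the last one (43.6 and 43.5).

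Reads from similar copies elsewhere in the genome could bear on how far a missing peak can be read. The H2afz transcript (1069 bases) had 5 other matches in the genome of at least 85% identity over more than 50% of its length, of which 4 covered more than 80% and the longest 981 bases. The H2afv transcript had 0. No promoter window of the 3 genes had such a match, and the longest stretch of another place in the genome that matched was 116 bases for H2afz and 128 for Anp32e. Exons of H2afz are uncertain to the extent that reads could not be told apart between copies. That depends on the identity of each match above the limit of 85%, which was not examined. The H2afz promoter is mostly unique at this limit. The study's methods for ChIP-seq kept only reads that align to a single place, and whether this was done for CUT&RUN was not given. Under that setting, reads shared fully between copies are dropped. The coding regions of H2afz and H2afv themselves were identical at 304 of 384 bases (79.2%), and their products of 128 residues each differed at 3 residues.

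Inside the gene bodies, H2afv was the only one of the 3 genes with peaks beyond its promoter. Intron 2 held a peak in both lists, at 6436584 to 6436904 with a GFP score of 76 and at 6436409 to 6436921 with a SRCAP score of 99, with an overlap of 321 bp and midpoints 7700 and 7779 bp from the TSS. Of their lists, 77.0% and 86.0% of peaks scored lower. The order of the H2afv promoter and this intron thus differed between lists: the promoter led with the GFP antibody (239 against 76) and the intron with the SRCAP antibody (99 against 60). A further SRCAP peak at 6429873 to 6430221 (score 34) lay in intron 3 of the transcript with 5 exons, which is intron 2 of the one with 4, and no GFP peak overlapped it. Repeats made up 40.8% of the 500 bp around the midpoint of the GFP peak and 51.8% around that of the SRCAP peak in intron 2.

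Sequences of the stretches common to both lists are shown for this intron, for the peak next to H2afz, and for the H2afz upstream peak described below, as the shared site inside a gene body, the one nearest to H2afz and the one with the highest SRCAP score of these loci. They run 5′ to 3′ on the strand of the gene, and capitals mark the same motifs, and GCATGCG, a part of the NRF1 site.
H2afv intron 2, chr11:6436595-6436894, minus strand: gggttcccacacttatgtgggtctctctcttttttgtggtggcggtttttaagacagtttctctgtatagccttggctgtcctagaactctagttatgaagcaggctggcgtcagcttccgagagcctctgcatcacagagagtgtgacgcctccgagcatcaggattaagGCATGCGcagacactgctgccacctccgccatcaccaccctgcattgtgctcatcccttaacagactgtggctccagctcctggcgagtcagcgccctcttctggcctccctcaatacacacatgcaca
Dnajb14 promoter, next to H2afz, chr3:137867211-137867460, plus strand: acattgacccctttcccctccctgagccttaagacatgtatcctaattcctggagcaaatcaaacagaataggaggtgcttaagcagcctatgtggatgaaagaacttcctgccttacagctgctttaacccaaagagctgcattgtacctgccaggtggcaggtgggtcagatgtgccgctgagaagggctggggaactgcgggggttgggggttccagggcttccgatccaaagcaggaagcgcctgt
Upstream of H2afz, chr3:137833051-137833350, plus strand: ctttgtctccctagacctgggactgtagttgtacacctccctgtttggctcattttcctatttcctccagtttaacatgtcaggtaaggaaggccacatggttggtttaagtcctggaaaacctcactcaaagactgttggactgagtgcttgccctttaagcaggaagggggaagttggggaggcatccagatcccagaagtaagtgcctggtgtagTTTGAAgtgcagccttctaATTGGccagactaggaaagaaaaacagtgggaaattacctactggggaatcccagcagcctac

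The intron 2 stretch held 1 match to GCATGCG, which was present in 3.58% of RefSeq promoters and, in 500 bp windows, in 2.29% of GFP and 2.45% of SRCAP peaks away from promoters. The Dnajb14 stretch held no match to the 11 motifs. The stretch upstream of H2afz held 1 CCAAT and 1 TTTGAA match, and no CpG.

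Further from the genes, 4 shared pairs ranked higher in the SRCAP list than in the GFP list, and 1 of them was the highest-scoring SRCAP peak of the 3 loci. It lay 31 kb upstream of H2afz, in intergenic sequence with H2afz as the nearest coding gene. The GFP peak at 137832819 to 137833367 scored 71, with 74.5% of its list below. The SRCAP peak at 137833033 to 137833455 scored 126, with 91.8% below, and they overlapped by 335 bp. The other 3 such pairs were intron 2 of H2afv, the peak 38 kb past Anp32e (39 and 64, with 36.2% and 67.4% of the lists below) and the promoter of Ppia, the cyclophilin A gene (21 and 30, with 3.87% and 25.2% below). Of these 4 pairs 3 were away from promoters.

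The other 7 of the 11 shared pairs ranked higher in the GFP list, and all of those 7 were at promoters. How the shared peaks of the whole lists divide in this way was not counted. Over the whole lists, promoter peaks scored higher than other peaks with both antibodies. Their medians were 52 against 45 (GFP) and 53 against 44 (SRCAP). Besides H2afv and Anp32e they were at Dnajb14, at Purb, a single-stranded DNA-binding factor (121 and 34), at Ciart, a circadian repressor (56 and 31), at Aph1a, a subunit of gamma-secretase (67 and 26), and at Car14, a carbonic anhydrase (73 and 37). The pairs overlapped by 144 to 505 bp and their midpoints were 11 to 151 bp apart, with a median of 50 bp, as distances between peaks paired because they overlap.

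Counted over the loci, 11 of 19 GFP peaks (57.9%, 95% Wilson interval 36.3 to 76.9) overlapped a SRCAP peak, near the 56.2% of the whole GFP list. Of the SRCAP peaks, 11 of 15 (73.3%, 48.0 to 89.1) overlapped a GFP peak, and the interval contains the 57.7% of the whole SRCAP list. Promoters held 10 of the 19 GFP peaks (52.6%, 31.7 to 72.7), against 30.4% of the list, and 8 of the 15 SRCAP peaks (53.3%, 30.1 to 75.2), against 31.2%. The loci were drawn around genes and so contain promoters by construction, unlike the lists as a whole. A share over the loci of all protein-coding genes was not computed. All 8 of those SRCAP promoter peaks were shared. GFP peaks found in that list alone were 8, of which 2 were at promoters, the one in intron 1 of H2afv and one at Zmiz2 (score 47), a coactivator gene. SRCAP peaks found in that list alone were 4, and 0 of them were at a promoter. Shared GFP peaks had a median score of 71 and unshared ones 43, as against 61 and 35 over the list. For SRCAP the order in these loci was turned, 37 for shared and 47 for unshared peaks, as against 60 and 34 over the list.

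**Figure D4:**
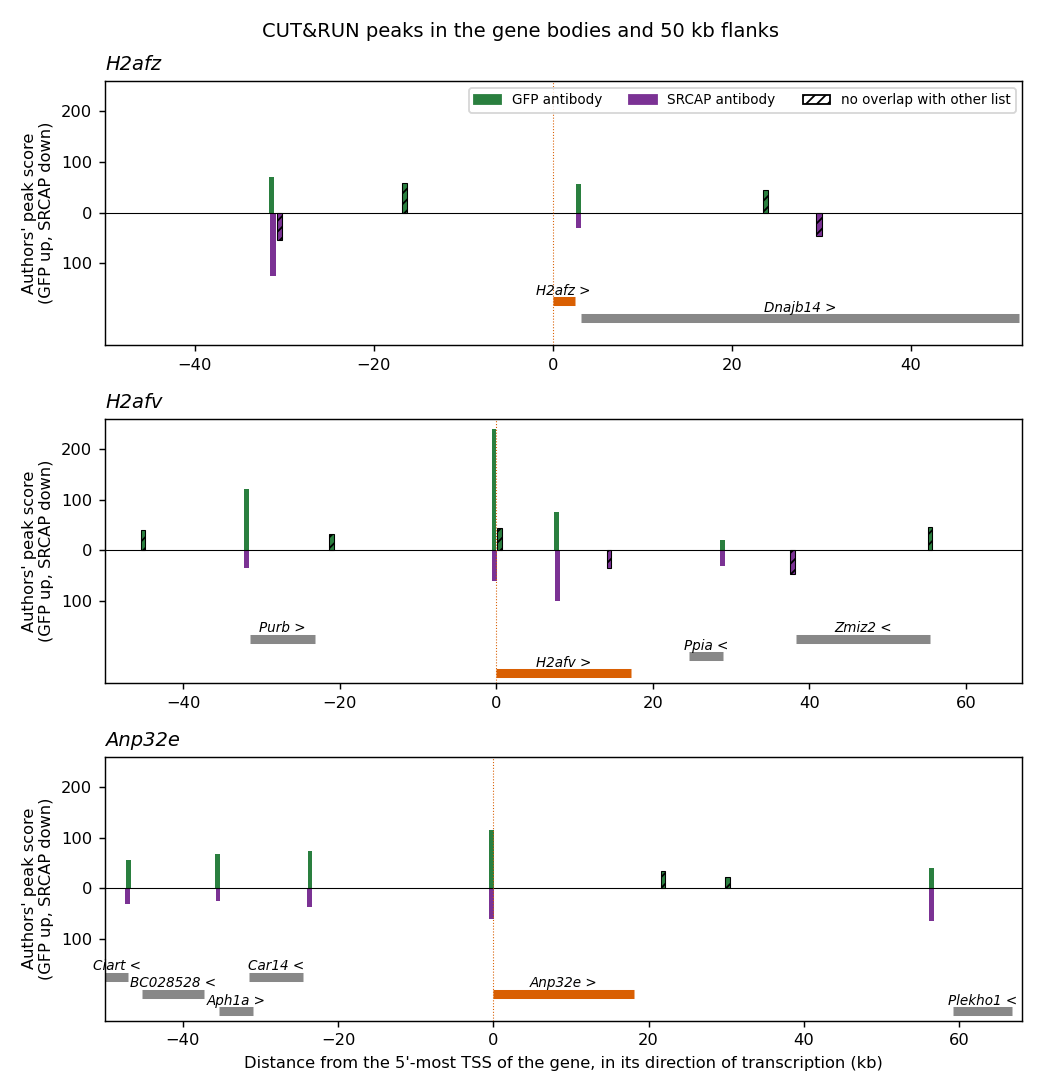
Scores of the listed peaks across the loci of H2afz, H2afv and Anp32e by distance from the 5′-most TSS in kb, with GFP scores drawn upward in green and SRCAP scores downward in purple, hatching on peaks with no overlap in the other list, and coding genes as bars below with an arrow for their direction. The highest GFP bar is the H2afv promoter (239) and the highest SRCAP bar lies upstream of H2afz (126).

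By locus, H2afz had 4 GFP and 4 SRCAP peaks, H2afv 8 and 6, and Anp32e 7 and 5. At least 1 GFP peak was present in such a locus for 79.7% of protein-coding genes and at least 1 SRCAP peak for 80.5%, with a median of 3 peaks for each antibody. Per Mb the loci held 39.0 and 39.0, 68.3 and 51.2, and 59.2 and 42.3 peaks, where the median gene had 18.5 and 18.1. Of protein-coding genes, 77.6% and 80.2% had fewer than H2afz, 94.3% and 88.9% fewer than H2afv, and 91.0% and 82.5% fewer than Anp32e. All were above the median, but the size of the gap depended on the flank. With flanks of 25 kb the H2afz locus held 1 SRCAP peak, which is 19.1 per Mb against a median of 17.6, and the Anp32e locus 29.3.

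These peaks were spread unevenly around the genes. In the H2afz locus, GFP peaks alone were listed at 137847709 to 137848109, 16579 bp upstream of the TSS (score 59), and in an intron of Dnajb14 (45). SRCAP peaks alone were listed at 137833900 to 137834077, next to the shared upstream peak (55), and in an exon of Dnajb14 (47). In the H2afv locus, GFP peaks alone lay between H2afv and Purb (32) and in an intron of Gm11973 (41), and a SRCAP peak alone lay in intergenic sequence between Ppia and Zmiz2 (47). In the Anp32e locus, all 5 SRCAP peaks were shared, and GFP peaks alone lay 3704 bp past the end of the gene (34) and at 95959221 to 95959527 (23), where repeats made up 62.6% of the window. Anp32e had no peak in its gene body in either list.

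Neighbouring coding genes with their TSS in the loci numbered 9, of which 7 had a GFP promoter peak and 6 a SRCAP promoter peak. Of all protein-coding genes, 35.0% and 35.6% had one. BC028528 and Plekho1, both near Anp32e, had neither, and Zmiz2 had the GFP peak alone. H2afz thus lacked a peak next to a gene, Dnajb14, that had one with both antibodies. Just outside the 50 kb limit lay peaks at the promoter of Lamtor3, 52155 bp past H2afz with the GFP antibody (score 31) and 52318 bp with the SRCAP antibody (47), and a SRCAP peak 50094 bp past Anp32e (40). Just inside it lay the Ciart peaks, 46995 and 47090 bp upstream of Anp32e.

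Promoter peaks were higher in CpG than the other peaks by their medians, with overlap between the classes. Promoter peaks of the loci had a median CpG ratio of 0.74 (GFP) and 0.75 (SRCAP) in the 500 bp around the midpoint, and the other peaks 0.299 and 0.153. The promoter peaks at Car14 (0.298), Aph1a (0.375) and Dnajb14 (0.393) were low in the GFP list. Over the whole lists the medians were 0.602 and 0.639 at promoters and 0.234 and 0.235 elsewhere. The shared peak upstream of H2afz had a ratio of 0.0 around the GFP midpoint, and the GFP peak 3704 bp past Anp32e had 0.735, the highest of the peaks away from promoters. Around the promoter peaks of H2afv the ratio was 0.816 for the GFP and 0.885 for the SRCAP peak, and around those of Anp32e 0.76 and 0.736.

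Genes of the same pathway were taken from lists chosen by function. These were the related chaperones and histone variants, the complexes that exchange H2A.Z and its readers, 41 genes besides H2afz, H2afv and Anp32e. Of the 41, 27 (65.9%, 95% Wilson interval 50.5 to 78.4) had a GFP promoter peak and 24 (58.5%, 43.4 to 72.2) a SRCAP promoter peak. Both intervals lay above the 35.0% and 35.6% of all protein-coding genes. They contained the 52.3% (GFP) and 53.1% (SRCAP) of protein-coding genes with a CpG ratio of at least 0.6. The lists were chosen with earlier results of these data known. Both antibodies had a peak at 22 and neither at 12. The listed genes with a peak had a median highest score of 61 in the GFP list, against 57 over all genes with one, and of 54.5 in the SRCAP list, against 60.

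The listed genes of the SRCAP complex mostly had promoter peaks. Of the 9 genes listed for it, Srcap among them, 8 had a GFP peak and 7 a SRCAP peak, and Dmap1 had neither. The study describes SRCAP with 9 other subunits, so the list was not the whole complex. The Srcap promoter itself had a GFP score of 81 and a SRCAP score of 26. Vps72, whose product YL1 is the H2A.Z-binding subunit of SRCAP, scored 21 and 56, among the lowest GFP scores of genes with a promoter peak, with 2.34% below. Actl6a, an actin-related subunit, had a GFP peak alone (54), 2453 bp downstream of its 5′-most TSS in the window of a downstream TSS. Scores of Znhit1 (54 and 53) and Ruvbl1 (61 and 50) compare with median highest promoter scores of 57 (GFP) and 60 (SRCAP) over all genes with a promoter peak. The Znhit1 midpoints lay 1177 and 1139 bp downstream of its 5′-most TSS, also in the window of a downstream TSS. Ruvbl2 had overlapping peaks in the window of a downstream TSS (58 and 46) and another SRCAP peak near its 5′-most TSS (73).

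Of the 11 genes listed here only under the p400-TIP60 complex, the other H2A.Z-depositing machine, 7 had a GFP and 6 a SRCAP peak. Trrap, Epc2 and Morf4l1 had neither. Membership in complexes outside these lists was not considered. Ep400, the ATPase, scored 71 and 142, and Ing3, a reader of H3K4me3, scored 163 and 126. Kat5, the acetyltransferase TIP60, had a GFP peak alone (80) and Mrgbp a SRCAP peak alone (96). The Mrgbp midpoint lay 1337 bp downstream of its 5′-most TSS, in the window of a downstream TSS. Of the 10 genes listed here only under the INO80 complex, a remodeller that acts on H2A.Z nucleosomes, 7 had a GFP and 8 a SRCAP peak. Ino80 scored 35 and 48 and Mcrs1 107 and 121. Wilson intervals for the share with a peak were 39.7 to 89.2% (GFP) and 49.0 to 94.3% (SRCAP) for the INO80 genes. For the p400-TIP60 genes they were 35.4 to 84.8% and 28.0 to 78.7%. All contained the 52.3% (GFP) or 53.1% (SRCAP) of protein-coding genes with a CpG ratio of at least 0.6. The SRCAP interval of the p400-TIP60 genes also contained the 35.6% of all protein-coding genes.

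Among the histone variants, H2afx, the variant of DNA damage signalling, scored 77 and 64, and H2afj had a GFP peak alone (53). The macroH2A genes H2afy and H2afy2 had no promoter peak. Of the genes for H3.3, the H3 variant often found with H2A.Z at promoters, H3f3b had peaks with both antibodies (101 and 67) and H3f3a with the GFP antibody alone (29). The H3f3b midpoints lay 3226 and 3315 bp downstream of its 5′-most TSS, in the window of a downstream TSS. Of the Anp32 family, Anp32e was the only gene with a promoter peak, as 0 of the other 2, Anp32a and Anp32b, had one with either antibody. A count of 0 of 2 has a 95% Wilson interval reaching to 65.8%. Among readers, Pwwp2a, which binds H2A.Z nucleosomes, scored 235 and 173, with 97.1% and 93.6% of genes below it, the highest scores of the 41 genes in both lists. Its GFP score was close to the 239 of H2afv, while its SRCAP score was well above the 60 of H2afv. Brd2 and Pwwp2b had no promoter peak.

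**Figure D5:**
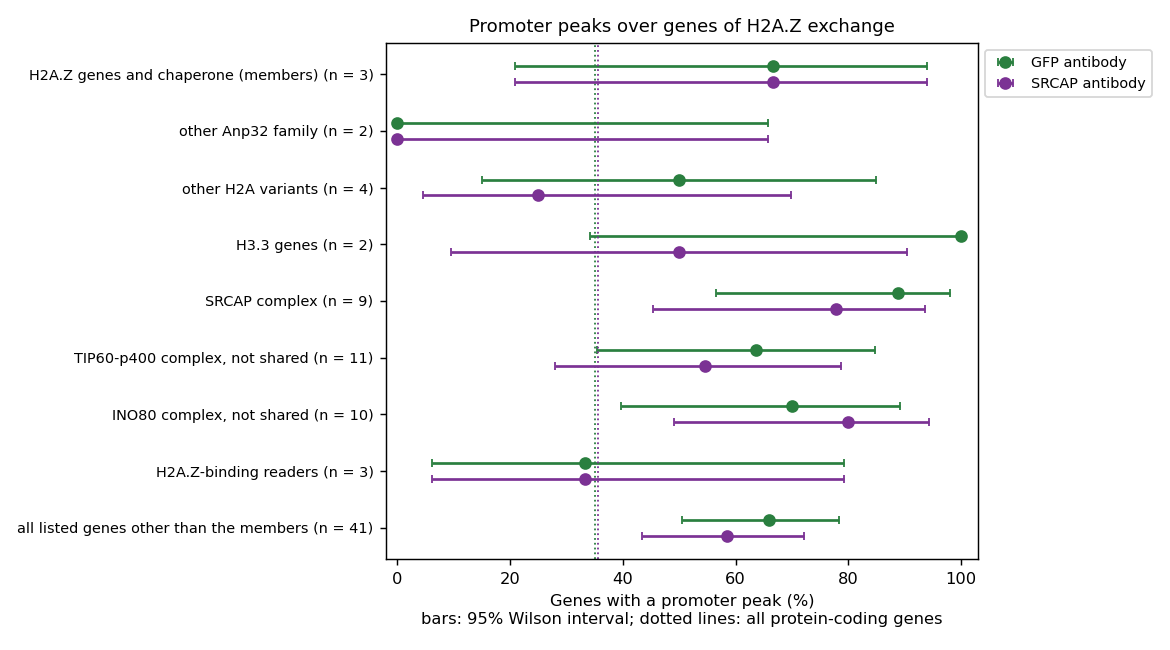
Percentage of genes with a promoter peak, with 95% Wilson intervals, for H2afz, H2afv and Anp32e together and for lists of related genes, with the GFP antibody in green and the SRCAP antibody in purple and dotted lines at the values of all protein-coding genes (35.0 and 35.6). The intervals of the SRCAP complex (56.5 to 98.0 and 45.3 to 93.7) lie above the dotted lines, and those of the lists with 2 to 4 genes span much of the axis. For protein-coding genes with a CpG ratio of at least 0.6, not drawn, the values are 52.3 and 53.1. The SRCAP antibody interval of the SRCAP complex contains the latter.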

How the data were processed

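CUT&RUN peaks of SYAT mESCs were analysed as deposited, 1 list per antibody and 1 library per list, grouped by the antibody in the library title. Per the labels, nuclei were bound to concanavalin A beads, antibodies were diluted 50-fold, inserts of 250 bp were selected and paired reads of 75 nt were sequenced. The study's methods describe CUT&RUN with the SRCAP antibody only, so the assay of the GFP library rests on its labels. The submitters' processing notes name STAR, Picard, MACS2 and the builds mm10 and dm6, with no role or order. For ChIP-seq the study's methods describe STAR mapping of reads with a single alignment, removal of duplicates and mitochondrial reads, MACS2 calling with an input and exclusion of blacklisted regions. Whether the CUT&RUN lists were made so was not given in the sources used here, and both lists held 3 mitochondrial peaks. If no matched control was used, places with many reads for other reasons, such as repeats, could be listed as peaks. The score column of the deposited lists is the authors' own, of unstated meaning. Its minimum of 13 equals the whole part of 10 times −log10 of 0.05. Coordinates are the authors', given here from 1, and 0 peaks ended beyond a GRCm38 chromosome.

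Peaks were joined to GENCODE vM21 genes by midpoint, were shared when they overlapped by at least 1 bp, and were assigned to promoters before exons, introns and intergenic sequence. Composition and motifs were computed from GRCm38.p6, and promoter sequences for 3 of 3 genes came from RefSeq. Copies were searched with blastn 2.17.0. Python 3.11.15, numpy 2.4.6, pandas 2.3.3, scipy 1.17.1, pysam 0.24.0 and matplotlib 3.10.9 were used, and overlaps were checked with bedtools 2.31.1. The code for overlaps and promoters was tested on planted peaks. Percentages carry 95% Wilson intervals. With 1 library per antibody no test was made and no p-value is given. The 3 genes, the gene lists and the tests were chosen with earlier results of these data known. Named genes were the 3 genes, genes whose promoter or body holds a peak of the loci or lies nearest to one, listed genes with a promoter peak, and the 3 genes with the nearest scores. Alternatives were a score at or above the list median, other promoter windows, TSSs, flanks and overlaps, and other sequence windows.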

Additional observations from a re-analysis of the deposited data

How the results depend on the processing

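Of 98 values under alternative settings, 72 counted as unmoved, 26 moved and 0 were reversed. Unmoved meant within 1.5 times for counts, within the 95% Wilson interval for shared percentages, and within 5 points for GC and repeats or 0.1 for CpG ratios. H2afv and Anp32e kept a promoter peak with both antibodies under each of the 4 alternatives tried for promoters. H2afz gained 1 in each list, for 3 of 3 genes, with a window of 2500 bp either side of the TSSs, which takes in the Dnajb14 peak. That rise from 2 to 3 genes counted as unmoved under the limit of 1.5 times, although the contrast between H2afz and the other genes was lost. Keeping scores at or above the list median left 1 of 2 GFP promoter peaks of H2afv. The counts of peaks in the loci depend on the settings by construction, 19 GFP and 15 SRCAP peaks becoming 11 and 8 at or above the median score, 12 and 8 with flanks of 25 kb, and 30 and 25 with flanks of 100 kb. With flanks of 25 kb H2afz had 1 SRCAP peak in place of 4. The shared percentage ranged from 36.4 to 63.2 for GFP peaks and from 50 to 75 for SRCAP peaks. Listed genes with a promoter peak ranged from 19 to 30 and from 17 to 27. Depth, which is unknown, limits what a missing peak shows. No paired analysis was possible because there was 1 library per antibody.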
